A study of Mus musculus with 4 samples.

Results

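Expression of 10 genes for monocyte-attracting chemokines and macrophage growth factors was followed in semilunar valve leaflets of newborn mice: Ccl2, Ccl7, Ccl8, Ccl3, Ccl4, Ccl6, Ccl9, Ccl24, Cx3cl1 and Csf1. They were found through every probe set annotated to 1 of these symbols alone, which gave 18 probe sets of the 45037 on the array that are not controls, and 10 genes of 18193. The tested animals were Cxcr7-/- neonates, which lack the chemokine receptor Cxcr7, and they were set against Control neonates, described as wildtype littermates. There were 2 Cxcr7-/- pools and 2 Control pools, each with aortic and pulmonary leaflets of 3 neonates on 1 Affymetrix array. A mutant gave 4 to 6 leaflets and a wildtype neonate 6. Sex, strain background and the design of the mutant allele were not given in the sources used here. The comparison asks how gene expression in these valves differs when the receptor is missing.

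CC chemokines are small secreted proteins that draw leukocytes out of the blood through G protein-coupled receptors on the cell surface. CCL2 and CCL7 act on CCR2 of inflammatory monocytes, CCL3, CCL6 and CCL9 on CCR1, and CX3CL1, which is made as a membrane-bound protein, on CX3CR1. CSF1 keeps macrophages alive and dividing through the receptor kinase CSF1R. Resident macrophages are normal inhabitants of heart valves, and Cxcr7 itself binds the CXC chemokines CXCL11 and CXCL12, for which it acts as a scavenger, rather than the CC chemokines described here.

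Cxcr7, listed under its current symbol Ackr3, read 28.3 and 328 in Cxcr7-/- pools, against 4936 and 5698 in Control pools. Both Cxcr7-/- pools were thus far below both Control pools, in the direction of their labels. The Cxcr7-/- pools themselves differed, with replicate 2 at 11.6 times replicate 1. The source of this gap was not tested. Signals are MAS5 values on a linear scale, and no detection calls were used here. Log2 fold changes are Cxcr7-/- minus Control on log2(signal + 22), with the standard error (SE, n = 2 and 2 pools) of a limma fit, and the fit covered the 22518 probe sets whose mean was above the array median. Of these probe sets 0% passed an adjusted p of 0.05, and 10.1% had an unadjusted p under 0.05. Without Control replicate 1, 673 probe sets passed, and without Cxcr7-/- replicate 2, 8 did. A fit without 1 pool leaves that genotype with a single array, which is assumed to vary like the other genotype's pair, and it is given here to show how far 1 pool sets a value. An exact permutation test of 2 against 2 pools cannot give a two-sided p below 0.333. Endothelial and valve interstitial markers were present, with 10 of 10 and 9 of 9 listed genes above the median of the arrays. So were 10 of 10 cardiomyocyte markers, whose summed signal was 78301 and 109214 in Cxcr7-/- pools, against 139836 and 188913 in Control pools; its part in the results was not tested. The log2 fold changes of Myh6, Tnni3, Mb and Myl2, genes of heart muscle contraction and oxygen storage, were -1.54 ± 0.34, -1.55 ± 0.38, -1.67 ± 0.44 and -0.76 ± 0.21. Without Control replicate 1, Myh6, Tnni3 and Mb were at -1.87, -2.10 and -2.43. When Control replicate 2 was left out instead, they were at -1.21, -0.99 and -0.92. Among interstitial markers, Pdgfra was at -0.57 ± 0.24, Lum at 0.54 ± 0.26, Vim at 0.39 ± 0.20 and Postn at 0.30 ± 0.26, and the erythroid gene Alas2 was at -0.23 ± 0.35. Lum was at 0.89 without Control replicate 1, but at 0.20 without Control replicate 2. Gapdh control probe sets had 3' over 5' ratios, which are higher where the 5' end of a transcript is less represented, of 12.6 and 8.20 in Cxcr7-/- pools and 12.7 and 24.2 in Control pools. For beta-actin they were 15.5 and 11.7 in Cxcr7-/- pools and 20.2 and 19.1 in Control pools. For beta-actin, both Control pools had higher ratios than both Cxcr7-/- pools. For Gapdh only Control replicate 2 stood clear, since replicate 1 was at 12.7 in Control and 12.6 in Cxcr7-/- pools. A difference in these ratios thus ran with genotype, clearly so for beta-actin alone. Its part in the results was not tested. In whole leaflets, fewer cells of a type and less RNA per cell cannot be told apart.

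None of the chemokine and growth factor genes passed the test between genotypes. Of the 18 probe sets, 9 were bright enough to be tested, and these belonged to Ccl2, Ccl6, Ccl9, Cx3cl1 and Csf1. Their unadjusted p-values started at 0.103, so 0 of 9 were under 0.05, and their adjusted p-values ran between 0.580 and 0.989. With 1 probe set a gene, the brightest, 6 of 10 log2 fold changes were positive and 4 negative, with a median of 0.04, beside a median of -0.02 over all genes. The genotypes did not overlap for 2 genes with higher signal in Cxcr7-/- pools (Ccl2 and Ccl8), where 18.3% of all genes did so, and for 1 gene with lower signal (Ccl4), where 19% did. The other 7 genes overlapped. Over all 18 probe sets, 4 did not overlap on the higher side and 3 on the lower side, where 17.1% and 21% of all probe sets did. Without 1 pool the median ran between -0.12 and 0.15.

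**Figure D1:**
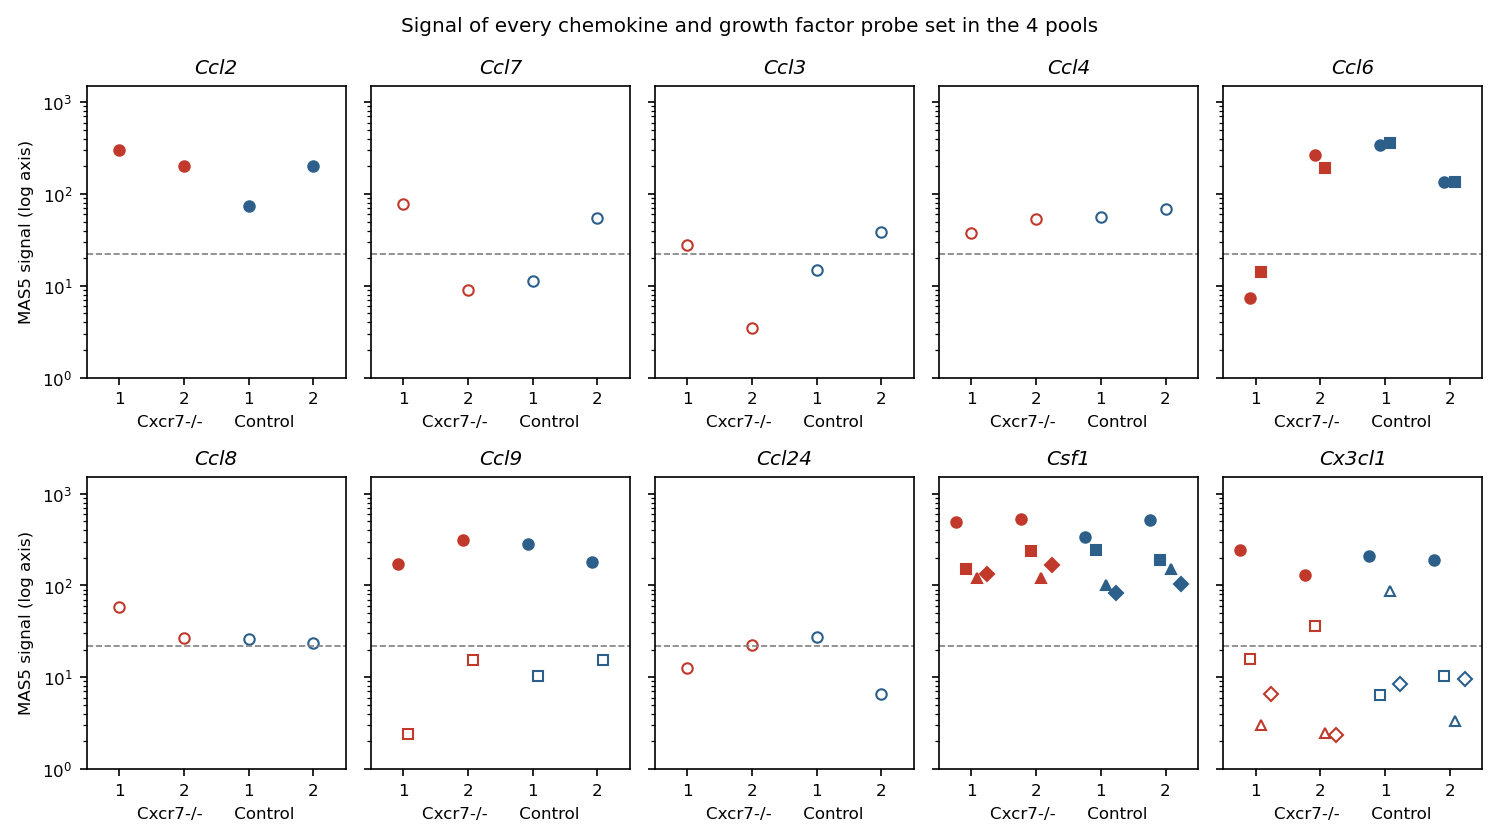
MAS5 signal (log axis) of each probe set of the 10 genes in the 2 Cxcr7-/- pools (red, left) and the 2 Control pools (blue, right); each marker shape is 1 probe set, filled where it was tested and open where it was too dim, and the dashed line is at 22, the value added before taking logs. Ccl6 in Cxcr7-/- replicate 1, at 7.27 and 14.3, lies far below the other pools, and the Csf1 probe sets lie between 82.0 and 527.

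Ccl2, which calls monocytes out of the bone marrow, read 299 and 204 in Cxcr7-/- pools, against 74.0 and 201 in Control pools. Both Cxcr7-/- pools were above both Control pools, but the second pool of each genotype differed by a few signal units. The log2 fold change was 0.88 ± 0.48, with a 95% interval of -0.23 to 1.99 and an adjusted p of 0.584. The low pool, Control replicate 1, set much of this value: without it the log2 fold change was 0.27, and without Control replicate 2 it was 1.49 (adjusted p = 0.248). Ccl7, its neighbour on chromosome 11 and another ligand of CCR2, was too dim to be tested, at 78.4 and 9.10 in Cxcr7-/- pools and 11.3 and 55.4 in Control pools. One pool of each genotype was high and one low, so the genotypes overlapped. Ccl8, a product of resident macrophages in many mouse tissues that signals through CCR8 in the mouse, read 59.0 and 27.0 in Cxcr7-/- pools, against 25.8 and 23.6 in Control pools. Only Cxcr7-/- replicate 1 stood clear of the other 3 pools, and the probe set was not tested.

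Ccl3 and Ccl4 are neighbouring genes for inflammatory chemokines that activated macrophages release. Neither was bright enough to be tested. Ccl3 read 28.1 and 3.44 in Cxcr7-/- pools and 14.7 and 38.3 in Control pools, with values on both sides of 22 in each genotype. Ccl4 read 37.5 and 53.5 in Cxcr7-/- pools, against 56.7 and 69.3 in Control pools. The 2 genotypes did not overlap for Ccl4, by a margin of a few signal units.

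Ccl6 and Ccl9 lie side by side on chromosome 11 and encode closely related chemokines of the mouse that act on CCR1 and are made by macrophages and other myeloid cells. Their promoters are shown because these neighbours are alike in sequence next to the start site and yet differed in how much they varied between pools. Each is the RefSeq sequence of build GRCm38.p6 from 250 bases before to 50 bases after the gene's start, on the minus strand (chr11:83593038-83593337 for Ccl6 and chr11:83578587-83578886 for Ccl9), written 5′ to 3′. Capitals mark the bases that are identical in the best local alignment of the pair.
Ccl6: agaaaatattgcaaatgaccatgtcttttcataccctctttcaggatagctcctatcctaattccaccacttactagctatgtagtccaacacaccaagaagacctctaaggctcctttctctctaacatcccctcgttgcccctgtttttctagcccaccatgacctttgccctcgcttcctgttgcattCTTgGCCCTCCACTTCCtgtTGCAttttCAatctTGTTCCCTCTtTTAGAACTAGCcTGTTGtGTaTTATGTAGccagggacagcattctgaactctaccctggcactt
Ccl9: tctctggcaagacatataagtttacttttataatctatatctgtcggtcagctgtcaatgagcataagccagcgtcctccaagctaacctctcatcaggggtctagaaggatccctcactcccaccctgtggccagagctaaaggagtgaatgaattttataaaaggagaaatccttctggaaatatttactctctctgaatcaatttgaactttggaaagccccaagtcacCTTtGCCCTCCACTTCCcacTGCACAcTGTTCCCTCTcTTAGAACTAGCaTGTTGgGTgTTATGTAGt
The alignment covers bases 192 to 265 of the printed Ccl6 sequence (74 bases) and bases 233 to 299 of the Ccl9 sequence (67 bases). Of these, 58 are identical. The stretch spans the start in both genes, but more of it lies before the start in Ccl6 and after it in Ccl9. Of the 32807 promoters of the same length, on either strand, Ccl9 was the 1 promoter other than Ccl6 itself that aligned this well with Ccl6. The promoters of Ccl3, Ccl8, Csf1 and Cx3cl1 were also aligned in all 15 pairs of these 6 genes, and the Ccl6 and Ccl9 pair scored 65, against 21 for the next pair. The likeness is a description of the letters and says nothing of what binds there.

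Ccl6 had the widest spread between pools of 1 genotype among the tested probe sets of the 10 genes. One probe set read 7.27 and 264 in Cxcr7-/- pools, against 339 and 134 in Control pools. The other read 14.3 and 190 in Cxcr7-/- pools, against 363 and 136 in Control pools. Both show the same order: Cxcr7-/- replicate 1 was by far the lowest, and Control replicate 1 the highest. On log2(signal + 22) the Cxcr7-/- pools were 3.29 and 2.55 apart, and 0.235% and 0.391% of all tested probe sets differed more between these pools. Both low values lie under the 25th percentile of all signals, so no fold is given. The log2 fold changes between genotypes were -1.37 ± 0.96 and -1.49 ± 0.81, with adjusted p-values of 0.662 and 0.580. Without Cxcr7-/- replicate 1 they were 0.27 and -0.22, so the direction of the first turned and the size of the second rested on that pool. Without Cxcr7-/- replicate 2 they were -3.02 and -2.76, with adjusted p-values of 0.359 and 0.426. The size also follows the value added to every signal: with no pseudocount the values were -2.28 and -2.09, and with one 4 times larger -0.75 and -0.92.

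Ccl9, by contrast with its neighbour, stayed within a factor of 1.80 between pools. Its tested probe set read 172 and 310 in Cxcr7-/- pools, against 284 and 180 in Control pools. Within each genotype the lower pool was the same as for Ccl6, with a smaller gap. The genotypes overlapped fully, and the log2 fold change was 0.03 ± 0.41, with a 95% interval of -0.92 to 0.97. Its second probe set read 2.44 to 15.5 in the 4 pools and was not tested. Whether Ccl6 and Ccl9 differed in their response to genotype was not tested.

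Summed over the list, markers of granulocytes and mast cells had the same order of pools as Ccl6, though some single genes did not. Of 16 listed neutrophil, mast cell and eosinophil genes found on the array, 13 were lower in Cxcr7-/- replicate 1 than in Cxcr7-/- replicate 2. Likewise, 13 were lower in Control replicate 2 than in Control replicate 1. These shares were not counted over all genes. The first count was 6 of 9 for interstitial, 8 of 26 for macrophage, 2 of 10 for endothelial and 8 of 10 for cardiomyocyte markers. The second was 9 of 9, 18 of 26, 4 of 10 and 0 of 10. Neither count was thus particular to this list. Cardiomyocyte markers came near its share on the first, and interstitial markers passed its share on the second. The summed signal of the 16 genes was 1109 and 3354 in Cxcr7-/- pools, against 4313 and 1566 in Control pools. Cma1, a chymase of mast cells, read 11.4 and 251 in Cxcr7-/- pools, against 344 and 199 in Control pools. Cpa3, the mast cell carboxypeptidase, read 30.1 and 538 in Cxcr7-/- pools, against 831 and 202 in Control pools. Both genes and the sum were lowest in Cxcr7-/- replicate 1. Kit, the receptor that mast cells need, ran otherwise, with 452 and 318 in Cxcr7-/- pools, against 353 and 235 in Control pools (0.37 ± 0.36). Mpo, the neutrophil myeloperoxidase, did not follow the order either, with 73.2 and 57.5 in Cxcr7-/- pools, against 170 and 79.0 in Control pools (-0.68 ± 0.47). The neutrophil granule gene Ngp read 92.5 and 643 in Cxcr7-/- pools, against 732 and 154 in Control pools. S100a8 and S100a9, whose products form the calprotectin complex of neutrophils, read 234 and 630, and 71.8 and 295, in Cxcr7-/- pools, against 852 and 252, and 339 and 111, in Control pools. These last 3 genes were named after their values were seen, so their order is no support for the pattern. They belong to the 16 listed genes, so the counts and sum above and the medians in the figure include them. Without Cxcr7-/- replicate 1, the log2 fold change of Cma1 was -0.06, against -1.58 with all pools, and that of Cpa3 was 0.36, against -1.36. At an unadjusted p under 0.05, 0 of the 8 tested genes of the list differed, where 3.93% of all tested genes were higher and 4.03% lower. Of the 16 genes, 1 was at or under 22 in all pools (Cxcr2, a receptor of neutrophil-attracting chemokines). The part of these cells in the Ccl6 signal was not tested.

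**Figure D2:**
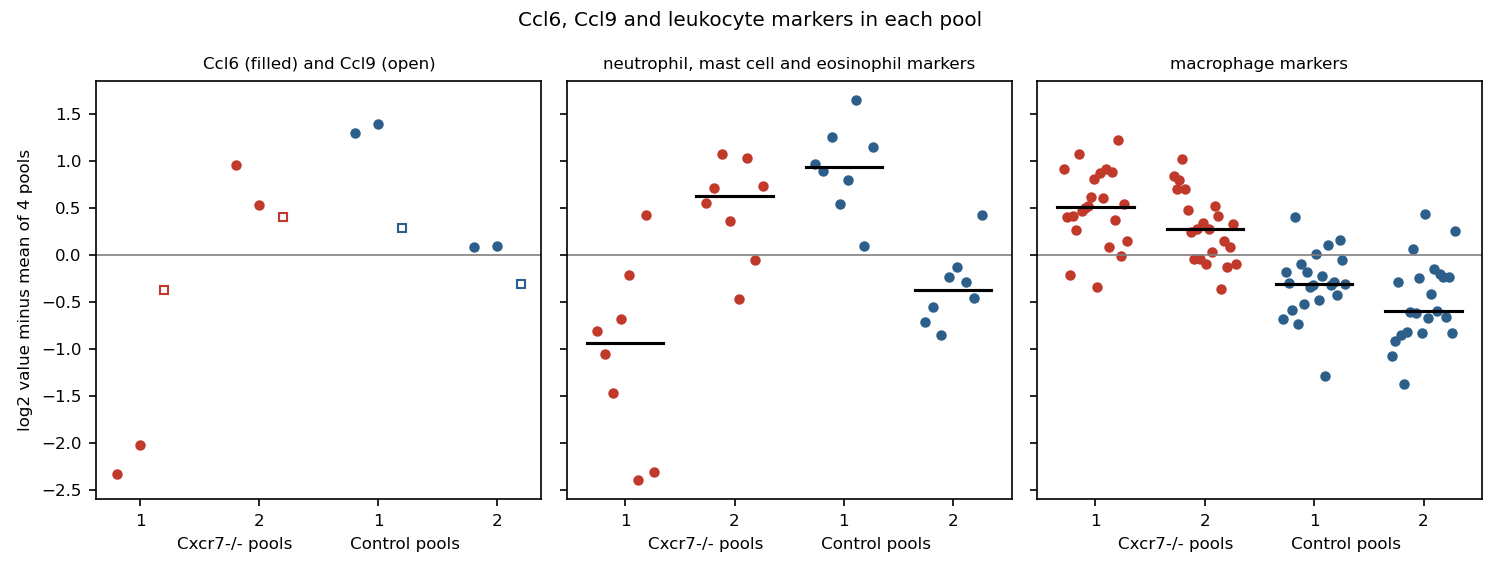
Log2 value of each pool minus the mean of the 4 pools (vertical axis) for the tested probe sets of Ccl6 and Ccl9, for 8 neutrophil, mast cell and eosinophil markers and for 22 macrophage markers; black bars are medians over the genes of a list, with Cxcr7-/- pools in red on the left and Control pools in blue on the right. The granulocyte and mast cell medians are -0.93 and 0.63 in Cxcr7-/- pools and 0.93 and -0.37 in Control pools, while the macrophage medians are 0.51 and 0.28 in Cxcr7-/- pools and -0.30 and -0.60 in Control pools.

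Ccl24, a CCR3 ligand that attracts eosinophils and is made by tissue macrophages in the mouse, was near the floor of the array in every pool. It read 12.7 and 22.4 in Cxcr7-/- pools and 27.5 and 6.54 in Control pools, and it was not tested.

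Cx3cl1, the membrane-bound chemokine also called fractalkine, is known from endothelial cells and neurons. Of its 4 probe sets 1 was tested, and it read 242 and 130 in Cxcr7-/- pools, against 208 and 190 in Control pools. The Control pools lay between the Cxcr7-/- pools, and the log2 fold change was -0.14 ± 0.40, with a 95% interval of -1.06 to 0.78. The 3 dim probe sets disagreed in direction. One read 15.7 and 36.5 in Cxcr7-/- pools, against 6.41 and 10.4 in Control pools. Another read 3.00 and 2.45 in Cxcr7-/- pools, against 86.3 and 3.35 in Control pools, so that Control replicate 1 alone was high. The third read 6.55 and 2.33 in Cxcr7-/- pools, against 8.50 and 9.64 in Control pools.

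Csf1 was measured by 4 probe sets, all bright enough to be tested. The brightest read 490 and 527 in Cxcr7-/- pools, against 336 and 518 in Control pools. Its log2 fold change was 0.27 ± 0.33, with a 95% interval of -0.49 to 1.03. Another probe set did not overlap, at 132 and 166 in Cxcr7-/- pools, against 82.0 and 105 in Control pools (0.57 ± 0.39, adjusted p = 0.659). The remaining probe sets were at -0.16 ± 0.38 and -0.05 ± 0.39, and the second of these turned to 0.10 after quantile normalization and 0.09 after median centring. The probe sets of this 1 gene thus differed in sign, and each interval held 0.

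**Figure D3:**
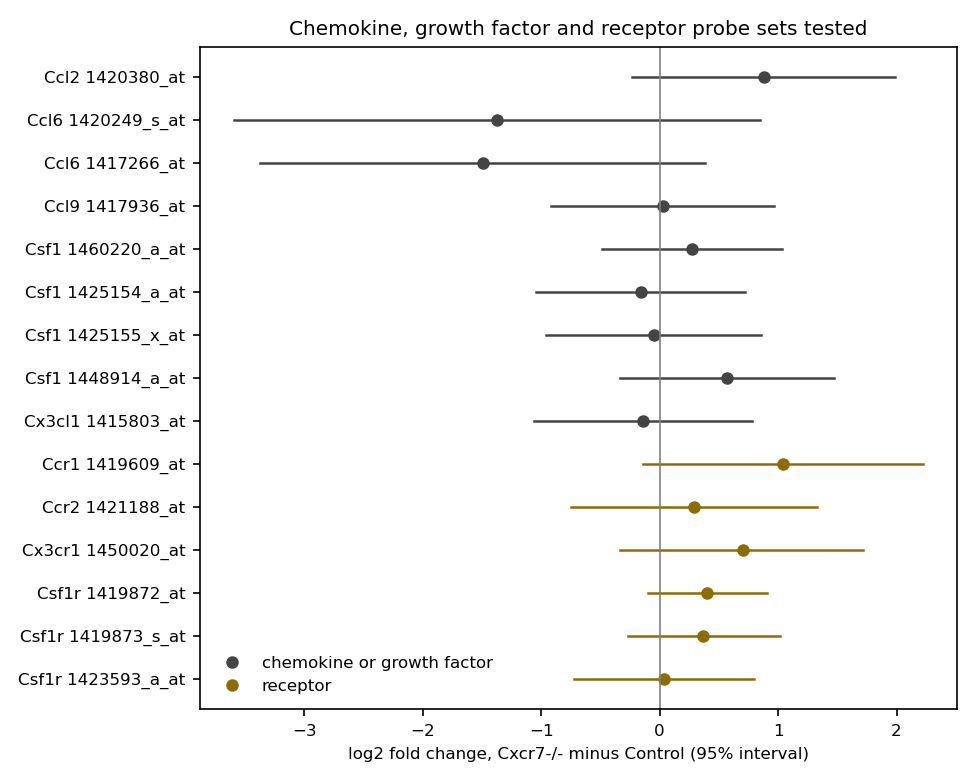
Log2 fold change, Cxcr7-/- minus Control (horizontal axis), with its 95% interval, for the 9 tested probe sets of the chemokine and growth factor genes (grey) and the 6 tested probe sets of their receptors (brown). Every interval includes 0, and the receptor values are all above 0, between 0.04 and 1.04.

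None of the receptors through which these proteins act passed the test, and whether they differ from their ligands was not tested. For the 6 receptor genes measured, the brightest probe set was positive in 6 of 6. The median log2 fold change was 0.35, beside -0.02 over all genes. Of these, Ccr3 (0.01) and Ccr8 (0.02) were under 22 in all pools, so their signs carry no weight. The 4 tested genes had a median of 0.55, beside 0.00 over all tested genes. Of the 6 genes, 3 did not overlap on the higher side, where 18.3% of all genes did so. Ccr1, the receptor of CCL3, CCL6 and CCL9, read 308 and 185 in Cxcr7-/- pools, against 177 and 59.3 in Control pools (1.04 ± 0.51, adjusted p = 0.533). Its other probe set, not tested, overlapped, at 67.2 and 43.0 in Cxcr7-/- pools and 69.3 and 5.42 in Control pools. Cx3cr1 read 637 and 637 in Cxcr7-/- pools, against 623 and 234 in Control pools, so that Control replicate 2 alone was low. Its log2 fold change of 0.70 ± 0.44 (adjusted p = 0.634) was 1.37 without Control replicate 1 (adjusted p = 0.0499). It was 0.03 when Control replicate 2 was left out (adjusted p = 0.983), so it rested on the low pool. The second probe set, not tested, read 33.7 and 24.3 in Cxcr7-/- pools, against 8.25 and 15.6 in Control pools.

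Csf1r, the receptor of CSF1 and a marker of macrophages, read 10428 and 9317 in Cxcr7-/- pools, against 8035 and 6899 in Control pools (0.40 ± 0.22, adjusted p = 0.575). A second probe set was at 0.37 ± 0.28 and the third at 0.04 ± 0.33. Ccr2, the receptor of CCL2 and CCL7 on monocytes, had 1 tested probe set of 4, which read 100 and 118 in Cxcr7-/- pools, against 122 and 57.6 in Control pools (0.29 ± 0.45). The other Ccr2 probe sets were at -0.26, 0.21 and -0.22. Ccr3 and Ccr8, the mouse receptors of CCL24 and CCL8, were near the floor of the array. Ccr3 read 9.62 and 3.56 in Cxcr7-/- pools and 9.03 and 3.52 in Control pools, and Ccr8 2.39 and 3.05 in Cxcr7-/- pools and 3.06 and 1.58 in Control pools.

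Atypical chemokine receptors and the related Ccrl2 were measured for 4 of 4 listed genes. Ccrl2 read 267 and 155 in Cxcr7-/- pools, against 127 and 118 in Control pools (0.65 ± 0.40, adjusted p = 0.623). Ackr4 was at 0.58 ± 0.42, Ackr2 at 0.43 ± 0.39 and Ackr1 at -0.02 ± 0.47, the last turning to 0.09 after quantile normalization and 0.12 after median centring. Among 9 other CC chemokines found, 2 were bright enough to be tested, Ccl12, a CCR2 ligand of the mouse, at 0.34 ± 0.45 and Ccl25 at -0.27 ± 0.42. In Ccl12 a single pool was high, with 215 and 93.9 in Cxcr7-/- pools, against 109 and 109 in Control pools.

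Other myeloid growth factors and their receptors held 1 gene of 3 tested with an unadjusted p under 0.05 and higher signal, where 3.93% of all tested genes had one. This was Kitl, the stem cell factor that mast cells depend on, with 7820 and 10190 in Cxcr7-/- pools, against 6282 and 3484 in Control pools (0.93 ± 0.32, adjusted p = 0.444). A second Kitl probe set was at 1.47 ± 0.52 (adjusted p = 0.450) and the third at 0.36 ± 0.46. Without Control replicate 1 the first was at 1.35 (adjusted p = 0.0232) and the second at 2.31 (adjusted p = 0.00942). Without Control replicate 2, the low pool, they were at 0.51 (adjusted p = 0.459) and 0.63 (adjusted p = 0.478). Csf2rb, the shared receptor chain for GM-CSF and related cytokines, was at 0.41 ± 0.33, and the GM-CSF receptor chain Csf2ra at -0.11 ± 0.36, which turned to 0.02 after quantile normalization and 0.03 after median centring.

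The proteases that release CX3CL1 and CSF1 from the cell surface, with their iRhom partners, gave 1 of 3 tested genes with an unadjusted p under 0.05 and lower signal, where 4.03% of all tested genes had one. Rhbdf1 read 3040 and 2232 in Cxcr7-/- pools, against 3604 and 5472 in Control pools (-0.76 ± 0.29, adjusted p = 0.459). Adam17 was at 0.37 ± 0.24 and Adam10 at 0.13 ± 0.27. Target genes of NF-kappaB, the transcription factor that switches on Ccl2 and many other inflammatory genes, held 14 tested genes. Of these, 0 had an unadjusted p under 0.05, where 3.93% of all tested genes were higher and 4.03% lower. Of the 20 genes found, 12 were positive and 8 negative, with a median of 0.21, beside -0.02 over all genes. Genotypes did not overlap for 8 on the higher side and 5 on the lower side, where 18.3% and 19% of all genes did so. The 4 named next had the smallest p-values, and all 4 were positive. The adhesion molecule gene Vcam1 read 4594 and 3679 in Cxcr7-/- pools, against 3321 and 1699 in Control pools (0.79 ± 0.34, adjusted p = 0.497). It was at 1.26 without Control replicate 1 (adjusted p = 0.0349), but at 0.31 when Control replicate 2 was left out instead (adjusted p = 0.699). Birc3 was at 0.54 ± 0.29, and the selectin genes Selp and Sele were at 0.73 ± 0.40 and 0.71 ± 0.41.

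Macrophage markers had higher signal in Cxcr7-/- pools for most listed genes, though none passed the adjusted test. Of 26 genes found, 21 were positive and 5 negative, with a median of 0.61. Genotypes did not overlap for 15 on the higher side and 2 on the lower side, where 18.3% and 19% of all genes did so. The summed signal was 31653 and 28670 in Cxcr7-/- pools, against 21813 and 16142 in Control pools. At an unadjusted p under 0.05, 10 of 22 tested genes were higher and 0 lower, where 3.93% and 4.03% of all tested genes were, and 0 passed adjusted over all probe sets. Mrc1, the mannose receptor of resident macrophages, read 1908 and 1820 in Cxcr7-/- pools, against 618 and 466 in Control pools (1.75 ± 0.28, adjusted p = 0.400). F13a1 was at 1.43 ± 0.32, Cd68 at 1.55 ± 0.38 and Ms4a7 at 1.15 ± 0.34. MHC class II genes, which macrophages and dendritic cells use to present antigen, had 3 of 4 tested genes higher at an unadjusted p under 0.05, where 3.93% of all tested genes were: H2-Eb1 (1.84 ± 0.31), H2-Aa (1.24 ± 0.26) and H2-Ab1 (0.87 ± 0.35). The fourth, Cd74, the invariant chain, was at 0.29 ± 0.45. Without Control replicate 1, Mrc1 (1.95), F13a1 (1.57), H2-Eb1 (1.95) and H2-Aa (1.21) had adjusted p-values of 0.0114, 0.0354, 0.0189 and 0.0495. Without Control replicate 2 these were 0.121, 0.210, 0.121 and 0.151, and without Cxcr7-/- replicate 1 each was 1. For the 10 ligand genes the summed signal of the brightest probe sets was 1425 and 1550 in Cxcr7-/- pools, against 1378 and 1416 in Control pools. Whether the ligands differ from the macrophage markers in their response to genotype was not tested.

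Monocyte markers were mixed. Of 7 genes found, 2 were positive and 5 negative, with a median of -0.33, and 2 of 4 tested genes were higher at an unadjusted p under 0.05, where 3.93% of all tested genes were. These were Nr4a1, an orphan nuclear receptor of patrolling monocytes that is also an immediate early gene, at 1.24 ± 0.35, and the integrin gene Itgal at 0.86 ± 0.35. The other two ran the other way, Ace at -0.72 ± 0.32, with genotypes that did not overlap, and Plac8 at -0.65 ± 0.42. Lymphocyte markers were too dim to be tested in all 8 genes found. Among endothelial markers, given beside Cx3cl1, 4 of 10 were lower at an unadjusted p under 0.05, where 4.03% of all tested genes were. They were Cldn5 (-1.73 ± 0.26), Vwf (-0.83 ± 0.24), Robo4 (-1.24 ± 0.41) and Kdr (-0.72 ± 0.29). The summed signal of the list was 10205 and 9024 in Cxcr7-/- pools, against 14235 and 14290 in Control pools. Without Control replicate 1, Cldn5 was at -1.91 (adjusted p = 0.0107). It was at -1.54 when Control replicate 2 was left out instead (adjusted p = 0.121). The part of endothelial cells in the Cx3cl1 signal was not tested.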

How the data were processed

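Semilunar valve leaflets of Cxcr7-/- and Control neonates were measured on 4 arrays, each a pool of 3 mice. Per the labels' protocols, RNA (50 ng in total) was amplified in 2 rounds, a step that shortens transcripts at their 5' ends. The authors deposited 1 intensity per probe set and array on a linear scale, made with Expression Console and MAS5 per the submitters' processing notes. Their versions were not stated. The trimmed mean was 500.0 on every array. Number of arrays, not depth, limits the precision. No label ties pools of the same number to a litter or a day, and beyond their being separate pools nothing states how they were prepared, so p-values measure only the spread between these pools.

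The 64 control probe sets were set aside. A value of 22, the 25th percentile of all signals, was added before log2, and probe sets with a mean above the median of all were tested with limma 3.58.1 in R 4.3.3 (intensity trend, Benjamini-Hochberg over 22518 probe sets, threshold 0.05). The limma step was run on simulated data with planted changes larger than any seen for the 10 genes. That run does not show whether changes of the sizes seen here could be found. Annotation gave 34945 probe sets 1 symbol, 932 several and 9160 none; the brightest single-symbol probe set represented a gene in lists. RefSeq promoters of build GRCm38.p6 were matched by symbol for 6 of the 10 genes and aligned locally with Biopython 1.88 (match 2, mismatch 3 off, gap opening 7 off, extension 2 off). The genes and lists were chosen with earlier results of these data known. Named were every probe set of the 10 genes and of their receptors, and up to 4 genes of each other list with the smallest unadjusted p; others are said to be named after their values were seen. Alternatives were other pseudocounts, filters, normalizations and variance models, a replicate block, and each pool left out.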

Additional observations from a re-analysis of the deposited data

How the results depend on the processing

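No probe set of the 10 genes passed an adjusted p of 0.05 under any of the 13 alternatives run. With 1 pool left out, the smallest adjusted p was 0.248, for Ccl2 without Control replicate 2. Over all probe sets the count of calls was 0, and ran between 0 and 673 with 1 pool left out: it was 673 without Control replicate 1 and 8 without Cxcr7-/- replicate 2. Deviations of same-numbered pools correlated at -0.262, and nothing pairs the pools. With a replicate block the count stayed at 0, and with crossed numbers, tried after seeing the data, it was 5. The count of genes whose genotypes did not overlap was 3, and 1 after median centring, which moved the median of all genes by 0.14. It was 0 above the 75th percentile, where 1 gene was left. With a pool left out it ran between 5 and 8, where 64.6% to 73.3% of all genes did not overlap. The median log2 fold change of the 10 genes was 0.04. It was 0.16 after quantile normalization, 0.18 after median centring and 0.27 above the 75th percentile, and ran between -0.12 and 0.15 with a pool left out. With each pool left out in turn, log2 fold changes of tested probe sets turned direction for Ccl6 (between -3.02 and 0.27, 1 probe set), Ccl9 (-0.36 and 0.41), Cx3cl1 (-0.54 and 0.26) and 3 Csf1 probe sets (-0.03 and 0.56, -0.46 and 0.14, -0.29 and 0.20). Of the tested receptor probe sets, those that turned were Ccr2 (-0.14 and 0.72), 1 Csf1r probe set (-0.21 and 0.28) and Ackr1 (-0.54 and 0.50). So did Ccl12 (-0.18 and 0.86), Ccl25 (-0.59 and 0.05), Adam10 (-0.19 and 0.45) and 1 Kitl probe set (-0.08 and 0.80). Of the granulocyte and mast cell genes, Cpa3 (-3.07 and 0.36), Ngp (-1.67 and 0.87), S100a8 (-1.10 and 0.58) and S100a9 (-1.22 and 0.54) turned. So did Cd74 (-0.21 and 0.80), Postn (-0.06 and 0.65) and Alas2 (-0.61 and 0.15). Probe sets too dim to be tested turned too: Ccl7 (-0.71 and 0.98), Ccl3 (-0.89 and 0.09), Ccl24 (-0.34 and 0.46), 1 of Ccl9 (-0.51 and 0.11), 1 of Ccr1 (-0.26 and 1.47), 3 of Ccr2 (-0.98 and 1.39 for the widest), Ccr3 (-0.14 and 0.17) and Ccr8 (-0.02 and 0.07). Scaling turned 1 Csf1 probe set (0.10 after quantile normalization, 0.09 after median centring), Ackr1 (0.09 and 0.12) and Csf2ra (0.02 and 0.03). The causes were not tested.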
